A study of Mus musculus with 6 samples.

Results

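The 39 genes described here encode proteins of synaptic vesicles and secretory granules, and were followed by RNA sequencing in neural progenitors made from mouse embryonic stem cells (mESCs). They were chosen by symbol from textbook roles, with earlier results of these data known. All 39 were found among the 48526 Ensembl genes of the deposited count table. All were abundant enough to be tested, among 20549 genes in all. Of the 6 libraries, 3 came from 1 mESC line labelled -/- for Dmrta2, which encodes a DM-domain transcription factor of cortical progenitors, and 3 came from 1 line labelled flox/flox, the control, in which recombinase sites flank part of that gene. With 1 line per genotype, genotype and line cannot be told apart, and p-values measure only the spread between samples of a line. Cultures of both genotypes were treated alike. Seeded on gelatin in a serum-free medium, they received LDN193189 (100 nM), a BMP receptor inhibitor, together with SB431542 (10 µM), which blocks receptors of the TGF-beta and activin type, until day 4. XAV939 (1 µM), which dampens Wnt signalling, was present until day 6, and cyclopamine (1 µM), a Hedgehog pathway inhibitor, from day 2 until day 10 of the protocol. Cells were replated on day 5 and RNA was taken on day 8, a stage at which the labels call them neural progenitors.

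Neurons release transmitters from small synaptic vesicles. These are filled by transporters, tethered at the active zone, fused with the membrane by SNARE proteins when calcium binds a synaptotagmin, and then recovered by endocytosis. Neuropeptides and other cargo leave instead from larger dense-core granules, whose matrix is built from granins. Progenitors use few of these proteins, and their genes are switched on as neurons mature, in many cases as the repressor REST, which silences neuronal genes in other cells, declines.

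The labels place the comparison on the loss of Dmrta2, but the counts of Dmrta2 go against the label. Its level was 409, 414 and 439 CPM (counts scaled to a common library size) in the libraries labelled -/- A, B and C, against 85.2, 75.1 and 79.2 CPM in the libraries labelled flox/flox A, B and C. A count per gene cannot separate deleted exons from the rest, so the value does not test the deletion, and every direction below is a difference between libraries labelled -/- and libraries labelled flox/flox. Per-library values are given in the order A, B and C. Library totals ran from 24565560 to 39646793 counts, so that 1 CPM stood for 25.1 to 39.3 reads. "Rose" and "fell" are used for genes with an adjusted p under 0.05 in the quasi-likelihood test of edgeR, fitted on all 20549 genes and adjusted over them by the Benjamini-Hochberg method, and a fold change is that of the libraries labelled -/- over flox/flox. Genes of chromosome 11 stood apart, since 947 of 1589 (59.6%) rose and their median log2 fold change was 0.49. The 3 members on that chromosome, Vamp2, Nsf and Nsg2, are marked where their levels are given.

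Of the 39 genes, 30 rose in the libraries labelled -/- (76.9%) and 0 fell, while 17.9% of all tested genes rose and 17.4% fell. The median log2 fold change of the 39 was 0.87, beside -0.00 over all tested genes, and single genes ran from -0.59 for Sv2b to 3.88 for Nsg2. In 33 of the 39 all 3 libraries labelled -/- lay above all 3 libraries labelled flox/flox, a pattern shown by 25.5% of all tested genes. Outside chromosome 11, 27 of 36 rose, with a median of 0.88. The 9 genes that did not pass were Stx1a, Cplx1, Sv2b, Rab3b, Unc13a, Pclo, Amph, Sh3gl2 and Slc17a7. Leaving out library flox/flox A gave 21 genes that rose and leaving out flox/flox B gave 22, with 0 that fell in either case.

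**Figure D1:**
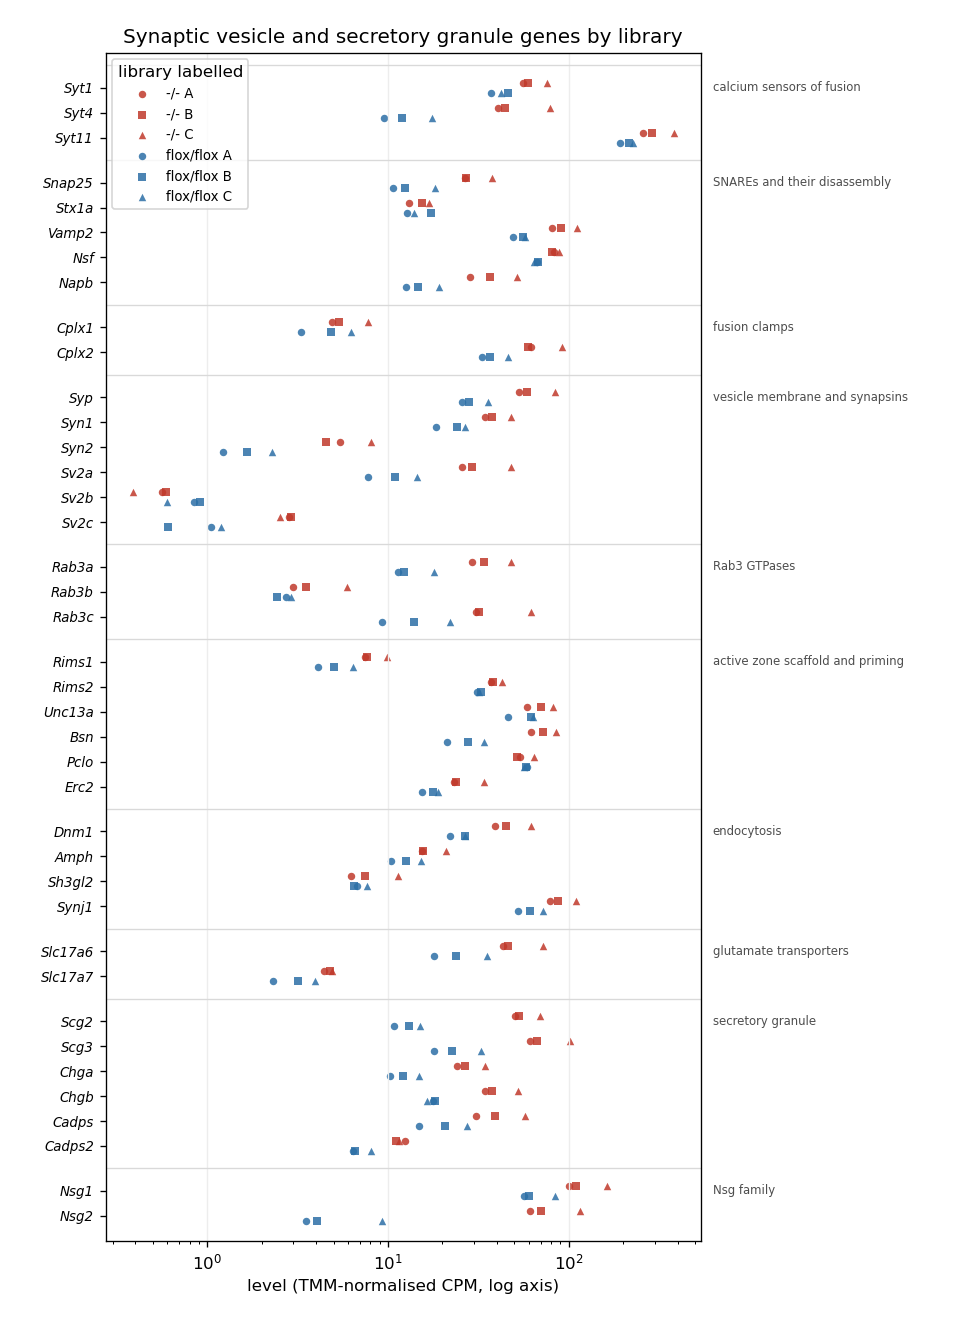
Level of each of the 39 genes in each library, in TMM-normalised CPM on a log axis, grouped by role, with libraries labelled -/- in red and flox/flox in blue and the letter A, B or C given by the symbol. Red points lie right of all blue points in 33 genes and left of them only for Sv2b.

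Libraries also differed within each genotype. Library C was the highest of its genotype for 36 of the 39 genes among those labelled -/- and for 32 among those labelled flox/flox, and library A was the lowest for 32 genes in each. Averaged over the 39 genes, the log2 level above the mean of the flox/flox libraries came to 0.75, 0.86 and 1.28 in libraries labelled -/- and -0.23, -0.02 and 0.25 in flox/flox libraries. The same order was seen for 28 markers of postmitotic neurons that lie outside the vesicle, such as Tubb3, Map2 and Dcx. For these the averages were 0.59, 0.72 and 1.22 in libraries labelled -/- and -0.31, -0.04 and 0.35 in flox/flox libraries. Of the 28 markers 20 rose and 0 fell, with a median log2 fold change of 0.85. With the letter as a block 25 rose, and 13 without flox/flox A and 7 without flox/flox B. When the shift of chromosome 11 was taken out, 17 rose. Their levels summed to 7166 to 11158 CPM in libraries labelled -/- and to 4420 to 6422 CPM in flox/flox libraries. In bulk RNA, fewer cells of a type and less RNA per cell cannot be told apart, so the number of neurons and the output of each are one quantity here, and the part of the neuron markers in the changes below was not tested. Among 16 progenitor markers, 8 rose and 4 fell (6 and 1 without -/- B, 6 and 2 without flox/flox B). With the shift of chromosome 11 taken out, 6 rose and 4 fell. Their summed level was 4797 to 5324 CPM in libraries labelled -/- and 4599 to 5153 CPM in flox/flox libraries.

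**Figure D2:**
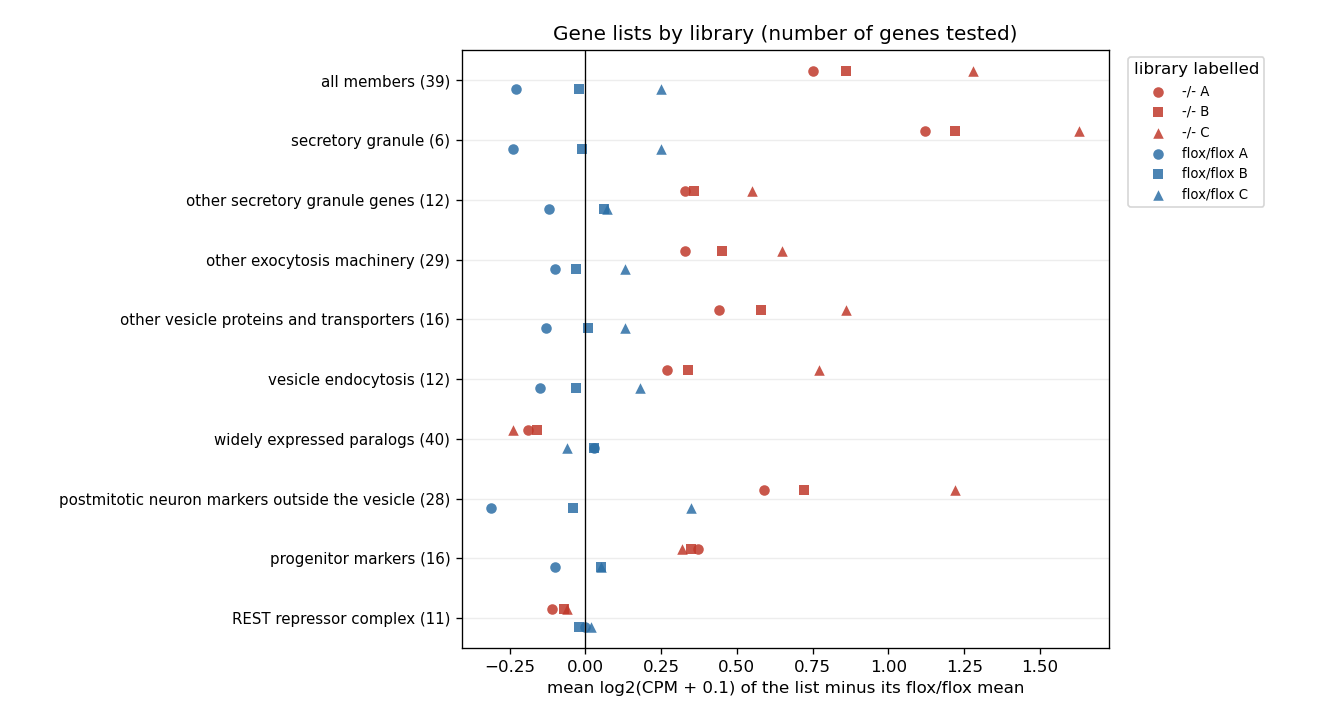
Mean log2(CPM + 0.1) of each gene list in each library minus its mean over the flox/flox libraries, with the number of genes tested in brackets. For the 39 members and for the neuron markers the libraries run in the order A, B, C within each genotype, and the libraries labelled -/- lie right of the flox/flox libraries.

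All 6 genes of the dense-core granule rose, with a median log2 fold change of 1.22. Scg2 (ENSMUSG00000050711, chromosome 1, 79434669 to 79440120, minus strand) encodes secretogranin II, a granin that is cleaved into secretoneurin. It had 50.6, 53.0 and 69.3 CPM in libraries labelled -/-, against 10.8, 13.0 and 15.1 CPM in flox/flox libraries, a log2 fold change of 2.15 ± 0.16 (SE; 4.45-fold, adjusted p = 0.000338). The groups were well separated, and the log2 fold change stayed between 2.01 and 2.28 in every alternative. Scg3 encodes secretogranin III, which binds chromogranin A to the granule membrane. Its levels were 61.1, 67.0 and 102 CPM in libraries labelled -/- and 17.9, 22.6 and 32.8 CPM in flox/flox libraries (log2 fold change 1.65 ± 0.26, adjusted p = 0.00309). The chromogranins, acidic proteins that condense in the granule core, rose to a similar degree. Chga stood at 24.2, 26.7 and 34.3 CPM in libraries labelled -/- and at 10.2, 12.1 and 14.9 CPM in flox/flox libraries, which gave 1.19 ± 0.18 (adjusted p = 0.00227). For Chgb the levels were 34.5, 37.5 and 52.5 CPM in libraries labelled -/-, against 17.7, 18.3 and 16.4 CPM in flox/flox libraries, or 1.24 ± 0.16 (adjusted p = 0.00135).

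Both CAPS genes, whose products prime dense-core granules for fusion, rose as well, and they differed in how the libraries spread. Cadps had 30.7, 39.1 and 57.1 CPM in libraries labelled -/- and 14.8, 20.7 and 27.3 CPM in flox/flox libraries, a log2 fold change of 1.02 ± 0.28 (adjusted p = 0.0253). This call rested on the full set of libraries, with an adjusted p of 0.0638 without flox/flox A, 0.0821 without flox/flox B, 0.0554 without -/- B and 0.0557 without -/- C. Cadps2 was tighter, at 12.5, 11.1 and 11.5 CPM in libraries labelled -/-, against 6.42, 6.61 and 8.01 CPM in flox/flox libraries (0.74 ± 0.12, adjusted p = 0.00346). It was one of the few members whose library C was not the highest of those labelled -/-. Of 12 other granule genes tested, 6 rose and 1 fell, with a median of 0.44. Pam, which amidates peptides inside the granule, averaged 74.3 ± 5.81 CPM in libraries labelled -/- and 48.9 ± 3.69 CPM in flox/flox libraries (SD, n = 3 each; adjusted p = 0.00182). The granule membrane protein gene Ptprn2 (log2 fold change 1.34, adjusted p = 0.00462) and Scg5 (1.13, adjusted p = 0.00554), which encodes the chaperone 7B2 of a prohormone convertase, also rose. The gene that fell was Vgf, a granin-related cargo induced by neurotrophins, with 6.89, 5.84 and 4.36 CPM in libraries labelled -/-, against 14.2, 17.0 and 12.8 CPM in flox/flox libraries (-1.36 ± 0.19, adjusted p = 0.00175). The direction of Vgf was therefore opposite to that of the 6 granule members.

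Granins are also abundant in neuroendocrine cells, and markers of these cells and of peripheral neurons were mixed. Of 9 tested, 3 rose and 1 fell, and the 12 listed summed to 160, 167 and 229 CPM in libraries labelled -/-, against 87.2, 95.5 and 109 CPM in flox/flox libraries. The most abundant of them was Insm1, a transcription factor of endocrine cells and of newborn neurons in the brain, at 105, 110 and 146 CPM in libraries labelled -/- and 31.5, 43.6 and 48.9 CPM in flox/flox libraries. Th, of catecholamine synthesis, averaged 1.73 CPM in libraries labelled -/- and 0.440 CPM in flox/flox libraries. The gene that fell was Prph, a filament of peripheral neurons, named after its values had been seen since it averaged under 1 CPM. It fell to 0.377 CPM in libraries labelled -/-, against 1.37 CPM in flox/flox libraries. Dbh, which defines noradrenergic and chromaffin cells, held 3 reads or fewer in every library. The part of these cells in the granule changes was not tested.

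A short DNA element was shared by the promoters of 2 granule genes, a synapsin and an endophilin gene. The RefSeq table of promoters (GRCm38.p6, 250 bases before to 50 after each start) held 43 windows for 34 of the 39 genes, and 32851 windows in all. It held none for Vamp2, Syt4, Rims2, Snap25 and Nsg1, and sequence outside the windows was not searched for any gene. The cAMP response element TGACGTCA, a palindrome that reads the same on both strands, was present in 4 of the 43 windows (9.3%) and in 588 of all windows (1.79%). The genes were Chgb, Scg2, Sh3gl2 and Syn1. The sequences below show 30 bases at the element for Chgb (chr2:132781559-132781588, plus strand), Scg2 (chr1:79440076-79440105, minus strand) and Sh3gl2 (chr4:85205408-85205437, plus strand). For Syn1 they show the 164 bases upstream of all annotated exons (chrX:20921005-20921168, minus strand), because it was the one window with a close match to RE1, the element bound by REST. All are written 5′ to 3′ with the response element in capitals, and the Syn1 line also has the RE1 match in capitals, as the first run of capitals.
Chgb: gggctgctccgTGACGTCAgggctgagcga
Scg2: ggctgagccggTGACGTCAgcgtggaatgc
Sh3gl2: atcacccgcccTGACGTCAgggtgtctctc
Syn1: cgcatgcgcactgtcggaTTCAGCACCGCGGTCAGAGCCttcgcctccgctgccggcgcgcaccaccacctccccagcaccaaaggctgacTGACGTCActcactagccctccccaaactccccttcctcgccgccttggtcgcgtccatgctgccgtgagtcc
Counted from the RefSeq start, the element began at -72 in Chgb, -68 in Scg2, -37 in Sh3gl2 and -159 in Syn1. GENCODE places exons over the first 3 of these sites, within the annotated span of each gene, so there the element may lie within a transcribed region. The transcript and strand of these exons were not checked. The RE1 match of Syn1 differed from the consensus at 2 of its 19 fixed bases and did not overlap the response element. Up to 4 such mismatches on either strand were accepted, which 1 of the 43 windows (2.33%) and 75 of all windows (0.228%) met. GC boxes (GGGCGG, either strand) were present in 24 of the 43 windows (55.8%) and in 35.7% of all windows, CAGCTG in 30.2% and 16.3%, CAGATG in 11.6% and 17.2%, and TATAAA in 9.3% and 13.6%. A match is a stretch of letters and not evidence of binding. Of the 4 genes with the response element, Scg2, Chgb and Syn1 rose, while Sh3gl2 had a log2 fold change of 0.27 ± 0.22 (adjusted p = 0.390).

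Rest itself fell, with 60.4, 58.2 and 46.9 CPM in libraries labelled -/-, against 114, 93.6 and 87.4 CPM in flox/flox libraries (-0.83 ± 0.13, adjusted p = 0.00269). All 3 libraries labelled -/- lay below all 3 flox/flox libraries, and in both genotypes library A had the most and library C the least. The part of Rest in the changes of the vesicle and granule genes was not tested. Of the 11 genes of its repressor complex that were listed, 1 rose and Rest was the one that fell. The count moved with the setting, to 0 rises and 2 falls without flox/flox A for example.

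Vesicle membrane proteins and synapsins had a median log2 fold change of 1.33, and 5 of the 6 genes rose. Syp encodes synaptophysin, an abundant membrane protein of the vesicle. It had 53.4, 58.5 and 83.8 CPM in libraries labelled -/- and 25.8, 28.0 and 35.9 CPM in flox/flox libraries (log2 fold change 1.13 ± 0.19, adjusted p = 0.00407). Of its exonic bases 16.8% overlap exons of another gene, whose reads could be counted with it. Synapsins tether vesicles in a reserve pool, and both rose. Syn1 (ENSMUSG00000037217, X chromosome, 20860511 to 20921004) was the more abundant, at 34.3, 37.5 and 48.0 CPM in libraries labelled -/-, against 18.4, 24.0 and 26.6 CPM in flox/flox libraries (0.80 ± 0.17, adjusted p = 0.00952). Syn2 was scarce but changed more, at 5.41, 4.54 and 8.09 CPM in libraries labelled -/- and 1.22, 1.67 and 2.27 CPM in flox/flox libraries (1.81 ± 0.29, adjusted p = 0.00337).

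The SV2 family, transporter-like glycoproteins of the vesicle membrane, split by member. Sv2a, the form present in most synapses and the target of the antiepileptic drug levetiracetam, had 25.6, 29.1 and 47.9 CPM in libraries labelled -/-, against 7.74, 10.9 and 14.4 CPM in flox/flox libraries (1.64 ± 0.29, adjusted p = 0.00497). Sv2c, a form found mainly in basal ganglia, was low at 2.85, 2.92 and 2.53 CPM in libraries labelled -/- and 1.05, 0.608 and 1.20 CPM in flox/flox libraries (1.54 ± 0.24, adjusted p = 0.00294). Sv2b ran the other way. It had 0.559, 0.595 and 0.387 CPM in libraries labelled -/- and 0.845, 0.912 and 0.598 CPM in flox/flox libraries, a log2 fold change of -0.59 ± 0.28 (adjusted p = 0.134). It was the only member of the 39 whose libraries labelled -/- lay below all flox/flox libraries (0.595 CPM being the highest of those labelled -/- and 0.598 CPM the lowest flox/flox value), and it did not pass in any alternative.

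Rab3 proteins are small GTPases on the vesicle that recruit active zone effectors. Rab3a had 29.0, 33.9 and 48.1 CPM in libraries labelled -/-, against 11.4, 12.2 and 18.0 CPM in flox/flox libraries (1.42 ± 0.23, adjusted p = 0.00351). Rab3c had 30.6, 31.9 and 61.8 CPM in libraries labelled -/- and 9.29, 13.9 and 22.1 CPM in flox/flox libraries (1.46 ± 0.37, adjusted p = 0.0198). Both rose to a similar degree, but Rab3c varied more between libraries, and its adjusted p was 0.0501 without flox/flox A and 0.0750 without flox/flox B. Rab3b was low, at 2.97, 3.52 and 5.95 CPM in libraries labelled -/- and 2.74, 2.43 and 2.91 CPM in flox/flox libraries. The groups did not overlap by a narrow margin, and the test was not passed (0.61 ± 0.27, adjusted p = 0.119). The Rab3 effector rabphilin, Rph3a, was among the other exocytosis genes with the smallest adjusted p. It had 2.72, 3.37 and 6.23 CPM in libraries labelled -/-, against 0.237, 0.266 and 0.398 CPM in flox/flox libraries (3.76 ± 0.43, 13.5-fold, adjusted p = 0.000907).

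The 3 synaptotagmins among the 39 genes all rose, by unequal amounts. Syt1, the sensor for fast synchronous release, had 56.1, 59.7 and 75.9 CPM in libraries labelled -/-, against 37.3, 46.1 and 42.3 CPM in flox/flox libraries (0.61 ± 0.13, adjusted p = 0.00985). Syt4, a synaptotagmin of dense-core granules with weak calcium binding, had 40.4, 44.4 and 78.7 CPM in libraries labelled -/- and 9.46, 11.9 and 17.6 CPM in flox/flox libraries (2.07 ± 0.31, 4.20-fold, adjusted p = 0.00257). The change of this granule synaptotagmin was thus closer to that of Scg2 than to that of Syt1, though 14.5% of its exonic bases overlap another gene. Syt11, a synaptotagmin that does not bind calcium, was the most abundant of the 39, at 259, 288 and 381 CPM in libraries labelled -/- and 192, 215 and 228 CPM in flox/flox libraries (0.55 ± 0.14, adjusted p = 0.0217). Its call was lost without flox/flox A (adjusted p = 0.0674) and without flox/flox B (0.0678). Outside the 39, the synaptotagmin gene Syt13 fell to 10.8, 11.5 and 13.2 CPM in libraries labelled -/-, against 24.6, 20.1 and 21.7 CPM in flox/flox libraries (-0.91 ± 0.11, adjusted p = 0.00129). Syt17 also fell, while Syt2, Syt5 and Syt16 rose, calls lost in 1, 3 and 3 alternatives. The other synaptotagmin genes listed outside the 39 did not pass or were not tested.

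Among the SNAREs and the proteins that take them apart, 4 of 5 rose, or 2 when the shift of chromosome 11 was taken out. Snap25, the membrane SNARE of the synapse that carries a pair of SNARE helices, had 26.6, 27.0 and 37.5 CPM in libraries labelled -/- and 10.6, 12.4 and 18.3 CPM in flox/flox libraries (1.14 ± 0.22, adjusted p = 0.00681). Vamp2, the vesicle SNARE, is on chromosome 11 and had 80.3, 91.0 and 111 CPM in libraries labelled -/-, against 48.9, 55.7 and 57.4 CPM in flox/flox libraries (0.80 ± 0.12, adjusted p = 0.00269). Relative to the typical shift of chromosome 11, a log2 offset of 0.516, its change was 0.28 with an adjusted p of 0.117. Stx1a, the syntaxin that completes the complex, did not pass, with 13.1, 15.4 and 16.8 CPM in libraries labelled -/- and 12.8, 17.4 and 14.0 CPM in flox/flox libraries (0.04 ± 0.14, adjusted p = 0.867). The 3 partners of 1 complex therefore gave log2 fold changes of 1.14, 0.80 and 0.04. The ATPase Nsf, also on chromosome 11, had 83.4, 81.1 and 87.9 CPM in libraries labelled -/- and 66.7, 67.4 and 63.9 CPM in flox/flox libraries (0.35 ± 0.06, adjusted p = 0.00343), and -0.17 relative to the shift of its chromosome (adjusted p = 0.0609). Its adaptor in neurons, beta-SNAP (Napb), had 28.5, 36.8 and 51.9 CPM in libraries labelled -/-, against 12.6, 14.6 and 19.1 CPM in flox/flox libraries (1.34 ± 0.24, adjusted p = 0.00485).

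Complexins clamp the assembled SNAREs until calcium arrives, and the pair differed in abundance and in the test. Cplx2 had 61.5, 59.2 and 91.4 CPM in libraries labelled -/-, against 33.2, 36.5 and 46.2 CPM in flox/flox libraries (0.87 ± 0.19, adjusted p = 0.0113). Cplx1 was scarce and its groups overlapped, at 4.93, 5.36 and 7.74 CPM in libraries labelled -/- and 3.31, 4.82 and 6.25 CPM in flox/flox libraries (0.32 ± 0.26, adjusted p = 0.381).

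The active zone genes had the smallest median log2 fold change of the 10 roles, 0.47, and 4 of 6 rose. Bsn and Pclo, which encode the giant related scaffolds bassoon and piccolo, went apart. Bsn (ENSMUSG00000032589, chromosome 9, 108096022 to 108190384) had 61.5, 72.0 and 84.9 CPM in libraries labelled -/- and 21.2, 27.8 and 34.2 CPM in flox/flox libraries (1.39 ± 0.18, 2.63-fold, adjusted p = 0.00155). Pclo had 53.9, 52.0 and 64.2 CPM in libraries labelled -/-, against 58.6, 58.1 and 56.3 CPM in flox/flox libraries (-0.02 ± 0.09, adjusted p = 0.855). The levels of Bsn were therefore separated between genotypes, and those of Pclo overlapped. Rims1 and Rims2, scaffolds that link Rab3 to calcium channels, rose by smaller amounts. Rims1 had 7.50, 7.65 and 9.89 CPM in libraries labelled -/- and 4.09, 5.05 and 6.41 CPM in flox/flox libraries (0.69 ± 0.19, adjusted p = 0.0288), while Rims2 had 37.3, 38.1 and 42.6 CPM in libraries labelled -/- and 30.9, 32.8 and 31.7 CPM in flox/flox libraries (0.31 ± 0.07, adjusted p = 0.0159). Erc2, a scaffold that binds both RIM and bassoon, had 23.1, 23.8 and 34.1 CPM in libraries labelled -/-, against 15.4, 17.8 and 18.8 CPM in flox/flox libraries (0.64 ± 0.16, adjusted p = 0.0204). These 3 calls were less secure than that of Bsn. Without flox/flox A the adjusted p was 0.0738 for Rims1, 0.0504 for Rims2 and 0.0639 for Erc2, and Bsn was the 1 gene of the group past the threshold. Without flox/flox B it was 0.0930 for Rims1 and 0.0622 for Erc2, leaving 2 genes, and Rims1 also missed the threshold without -/- B (0.0569) and without -/- C (0.0675).

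Unc13a encodes Munc13-1, which opens syntaxin and primes vesicles, and it did not pass. It had 58.6, 70.6 and 81.9 CPM in libraries labelled -/- and 46.3, 61.5 and 63.7 CPM in flox/flox libraries (0.30 ± 0.15, adjusted p = 0.173). Each library labelled -/- exceeded the flox/flox library of the same letter, and with the letter as a block the adjusted p was 0.00632 for the same log2 fold change of 0.30.

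Recovery of vesicle membrane was covered by 4 genes, of which 2 rose. Dnm1, the neuronal dynamin that cuts vesicles from the membrane, had 39.3, 44.9 and 62.1 CPM in libraries labelled -/-, against 22.1, 26.6 and 26.6 CPM in flox/flox libraries (0.96 ± 0.17, adjusted p = 0.00495). Synj1, the lipid phosphatase needed to uncoat clathrin-coated vesicles, had 78.4, 87.2 and 110 CPM in libraries labelled -/- and 52.5, 61.4 and 72.5 CPM in flox/flox libraries (0.56 ± 0.15, adjusted p = 0.0254). The groups did not overlap in either gene, but the call of Synj1 was lost without flox/flox A (adjusted p = 0.0699), flox/flox B (0.0832), -/- B (0.0546) or -/- C (0.0511). Amph, the membrane-bending partner of dynamin, had 15.5, 15.7 and 20.9 CPM in libraries labelled -/- and 10.4, 12.6 and 15.2 CPM in flox/flox libraries (0.45 ± 0.17, adjusted p = 0.0803; 0.00713 with the letter as a block). Sh3gl2, endophilin A1, which recruits synaptojanin, had 6.25, 7.51 and 11.4 CPM in libraries labelled -/-, against 6.72, 6.46 and 7.65 CPM in flox/flox libraries. Its groups overlapped, and the higher mean came from library -/- C, without which the log2 fold change was -0.00. Of 12 further genes of vesicle endocytosis, 5 rose and 0 fell, among them the neuronal AP-3 subunit gene Ap3b2 (1.18, adjusted p = 0.00540) and Sgip1 (1.66, adjusted p = 0.00323), an endophilin-binding endocytic adaptor. Without flox/flox B 3 rose, and without flox/flox C 7 rose and 1 fell.

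Vesicular transporters decide which transmitter is loaded. Slc17a6 encodes the glutamate transporter of most subcortical neurons and of early cortical neurons, and it had 43.1, 46.1 and 72.0 CPM in libraries labelled -/- and 18.0, 23.8 and 35.2 CPM in flox/flox libraries (1.07 ± 0.28, adjusted p = 0.0213). The adjusted p was 0.0528 without flox/flox A and 0.0792 without flox/flox B. Slc17a7, the transporter of mature cortical excitatory neurons, had 4.42, 4.76 and 4.93 CPM in libraries labelled -/-, against 2.30, 3.19 and 3.94 CPM in flox/flox libraries (0.59 ± 0.20, adjusted p = 0.0558; 0.0232 with the letter as a block). Per kilobase of exon, Slc17a6 stood at 9.95 CPM and Slc17a7 at 0.872 CPM in libraries labelled -/-, and at 4.75 and 0.583 CPM in flox/flox libraries, so the first was the more abundant in both. Among 16 other vesicle proteins and transporters, 8 rose and 0 fell, with a median of 0.48. Sncb, which encodes beta-synuclein, averaged 2.00 ± 0.209 CPM in libraries labelled -/- and 0.484 ± 0.0642 CPM in flox/flox libraries (SD, n = 3 each; adjusted p = 0.000632). Atp6v1g2, a neuronal subunit of the proton pump that energises loading, averaged 13.5 CPM in libraries labelled -/- and 6.68 CPM in flox/flox libraries (1.01 ± 0.15, adjusted p = 0.00253).

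The neuron-specific gene pair Nsg1 and Nsg2, whose products are small endosomal membrane proteins, both rose, by unequal amounts. Nsg2 (ENSMUSG00000020297, chromosome 11, 32000463 to 32059202, plus strand) had the largest change of the 39, with 61.1, 69.8 and 116 CPM in libraries labelled -/-, against 3.51, 4.03 and 9.32 CPM in flox/flox libraries (3.88 ± 0.41, 14.7-fold, adjusted p = 0.000707). The lowest library labelled -/- was well above the highest flox/flox library, the call held in every alternative including the chromosome 11 offset, and the log2 fold change ran from 3.37 to 4.45. Nsg1 had 99.8, 110 and 163 CPM in libraries labelled -/- and 56.7, 60.3 and 84.2 CPM in flox/flox libraries (0.89 ± 0.21, adjusted p = 0.0163). Of its exonic bases 17.9% overlap another gene, and its adjusted p was 0.0517 without flox/flox A and 0.0672 without flox/flox B. In flox/flox libraries Nsg1 stood at 20.9 CPM and Nsg2 at 1.35 CPM per kilobase of exon, and in libraries labelled -/- at 38.6 and 19.8 CPM per kilobase.

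**Figure D3:**
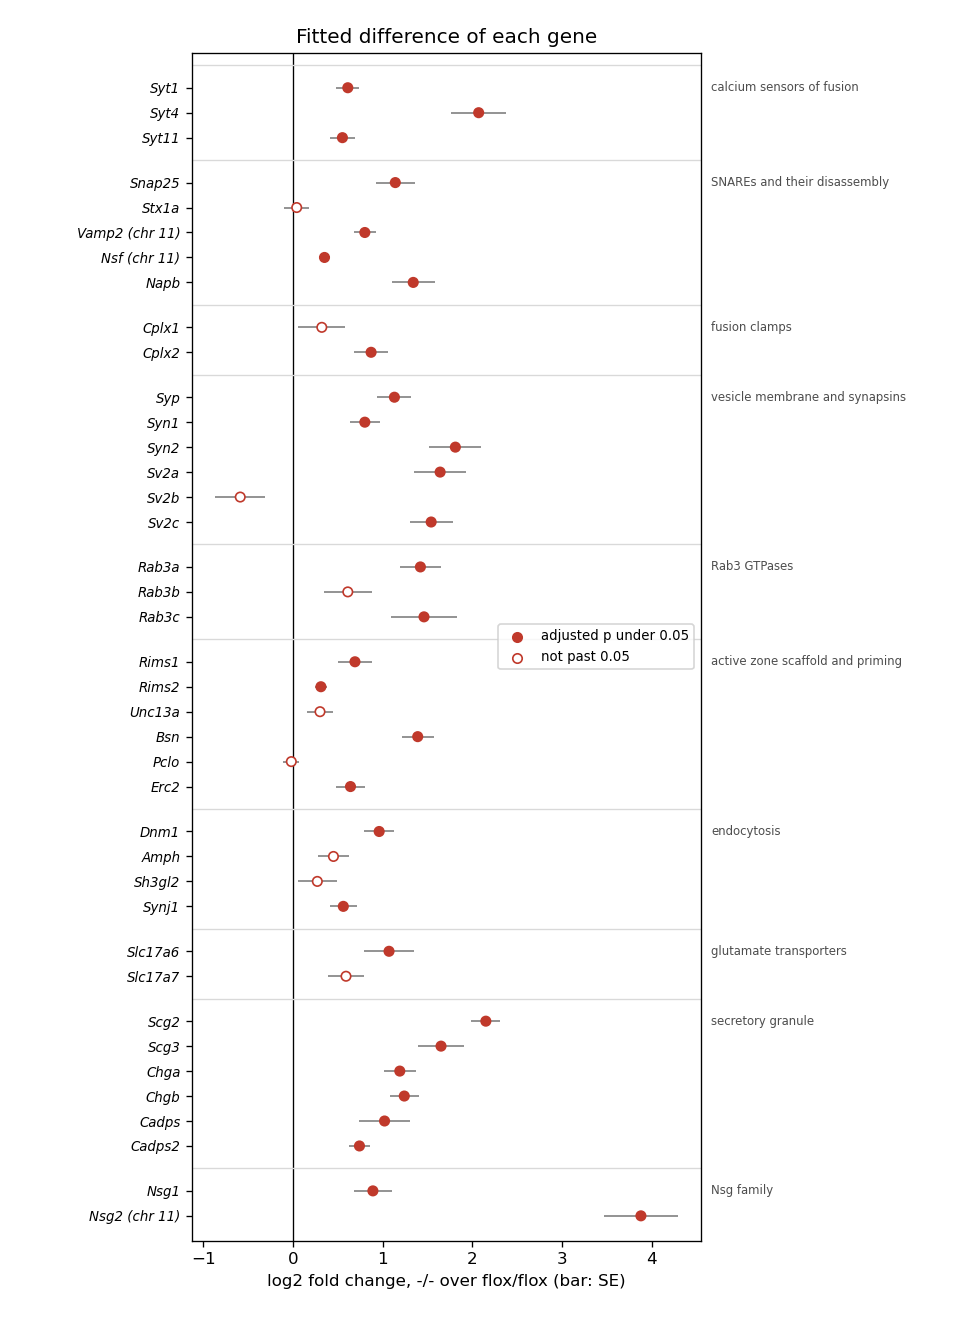
Log2 fold change of each gene, libraries labelled -/- over flox/flox, with bars of 1 SE, grouped by role, where filled points passed an adjusted p of 0.05. The 6 granule genes lie between 0.74 and 2.15 and are all filled, Nsg2 is at 3.88, and the open points are the 9 genes that did not pass.

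Levels compared per kilobase of exon put Syt11 first in both genotypes, at 59.4 ± 12.2 CPM per kilobase in libraries labelled -/- and 40.7 ± 3.57 in flox/flox libraries (SD, n = 3 each). Nsg1 followed at 38.6 ± 10.5 and 20.9 ± 4.66 CPM per kilobase in the same order. In libraries labelled -/- Scg3 (28.0), Vamp2 (24.7), Scg2 (22.9) and Nsg2 (19.8) came next, Vamp2 and Nsg2 being on chromosome 11. Their means differed from one to the next by less than the SD between libraries. In flox/flox libraries the same 4 genes stood at 8.93, 14.2, 5.16 and 1.35 CPM per kilobase. At the low end Sv2b, at 0.0613 CPM per kilobase in libraries labelled -/- and 0.0936 in flox/flox libraries, and Sv2c, at 0.285 and 0.0980, were the least abundant. Scg3 and Vamp2 were thus among the most abundant per length in both genotypes, whereas Scg2 and Nsg2 were so in libraries labelled -/- only, with at least 12 members above each of them in flox/flox libraries.

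Because the neuron markers moved with the members, each gene was also set against the mean log2 level of the 28 markers in the same library, a scale added after the data had been seen. On it, 15 of the 39 genes (38.5%) lay higher in the libraries labelled -/-, with no overlap between the genotypes, beside 2.73% of all tested genes. Another 11 lay lower (28.2%), beside 71.1% of all tested genes, and 13 overlapped. The markers themselves had a median log2 fold change of 0.85, so the scale moves most genes down and makes a higher position rare. The 39 genes had a median of 0.87, close to that of the markers. The 38.5% beside 2.73% therefore does not set the 39 genes as a group apart from other neuronal genes. The higher genes included Scg2, Scg3, Chga and Chgb of the granule, Syp, Syn2 and Sv2a of the vesicle membrane, Rab3a and Rab3c, as well as Syt4, Snap25, Napb, Bsn, Slc17a6 and Nsg2. Some margins were narrow. The lowest value of a library labelled -/- and the highest flox/flox value were 0.36 and 0.33 for Chgb, and 0.18 and 0.16 for Slc17a6. The largest differences of this log2 ratio were 3.09 for Nsg2, 1.30 for Scg2, 1.20 for Syt4, 0.91 for Syn2 and 0.81 for Scg3. Nsg2 is on chromosome 11, and the shift of that chromosome was not taken out on this scale. The lower genes were Rims1, Rims2, Unc13a and Pclo of the active zone, Amph, Sh3gl2 and Synj1 of endocytosis, and Syt11, Stx1a, Cplx1 and Sv2b. With 71.1% of all tested genes lower on this scale, a lower position sets none of these roles apart. The difference was -0.87 for Pclo and -0.80 for Stx1a. Rims1 was lower by a narrow margin, with -0.04 as the highest value of a library labelled -/- and -0.02 as the lowest flox/flox value.

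Summed levels were compared with the summed neuron markers by role. The 6 granule genes amounted to 2.98%, 3.03% and 2.93% of the summed neuron marker level in libraries labelled -/-, against 1.76%, 1.78% and 1.78% in flox/flox libraries. Within each genotype this summed share hardly moved between libraries. The marker sum itself ran from 7166 to 11158 CPM among libraries labelled -/- and from 4420 to 6422 CPM among flox/flox libraries. Single granule genes did move, in opposite directions, on the log2 scale relative to the markers. In flox/flox libraries Chgb stood at 0.33, 0.11 and -0.44 and Scg3 at -0.09, -0.03 and 0.12. Vesicle membrane proteins and synapsins amounted to 1.70%, 1.72% and 1.71% in libraries labelled -/- and 1.25%, 1.26% and 1.26% in flox/flox libraries. Rab3 genes amounted to 0.873%, 0.894% and 1.04% in libraries labelled -/- and 0.530%, 0.547% and 0.669% in flox/flox libraries. The Nsg pair, with Nsg2 on chromosome 11, amounted to 2.25%, 2.32% and 2.49%, against 1.36%, 1.23% and 1.46% in flox/flox libraries. Glutamate transporters and fusion clamps were also higher in each library labelled -/- than in each flox/flox library. Calcium sensors and SNAREs overlapped. The 6 active zone genes amounted to 3.38%, 3.41% and 2.85% in libraries labelled -/-, against 3.99%, 3.88% and 3.29% in flox/flox libraries, where the groups overlapped but each library labelled -/- was below the flox/flox library of its letter. The 4 endocytosis genes also overlapped, at 1.95%, 2.01% and 1.83% in libraries labelled -/- and 2.08%, 2.05% and 1.90% in flox/flox libraries. Over all 39 genes the share was 22.9%, 23.2% and 22.0% in libraries labelled -/- and 21.1%, 20.5% and 19.0% in flox/flox libraries.

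**Figure D4:**
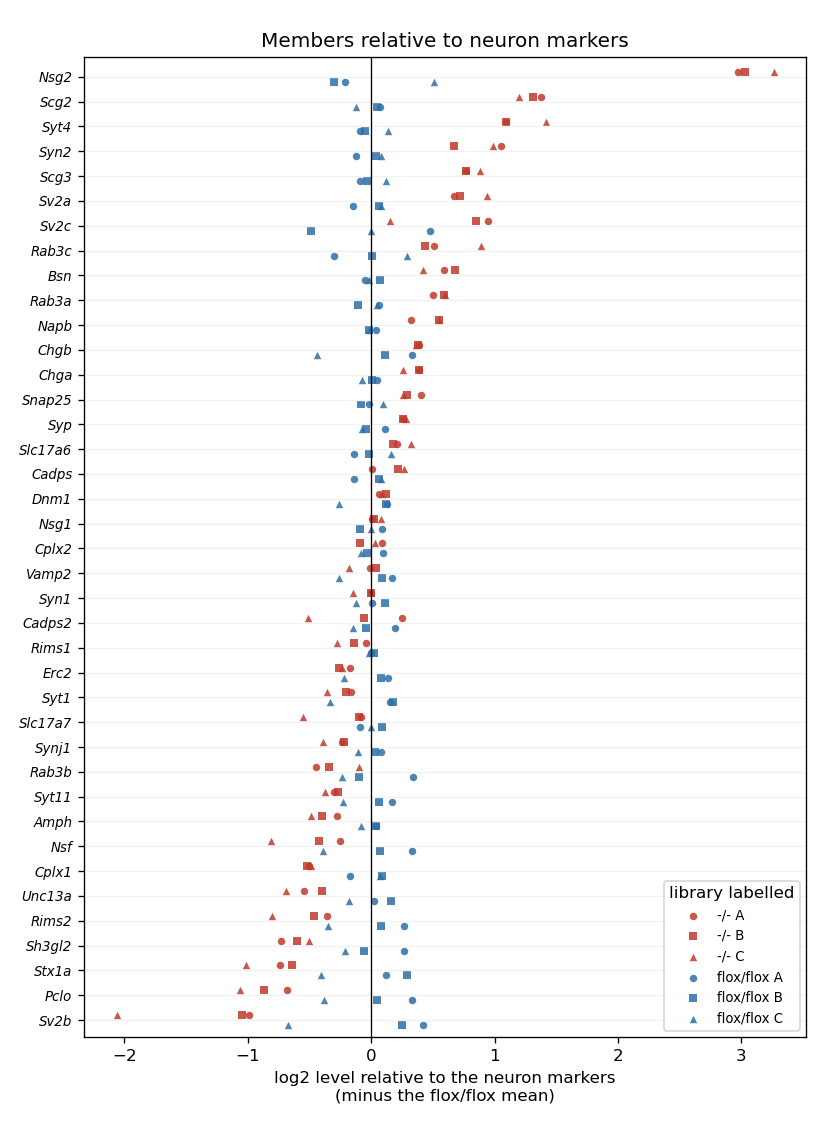
Log2 level of each gene relative to the mean of 28 neuron markers in the same library, minus its flox/flox mean, with genes ordered by the difference and libraries labelled -/- in red and flox/flox in blue. Red points lie right of all blue points for 15 genes, with Nsg2 and Scg2 at the top, and left of them for 11, with Sv2b, Pclo and Stx1a at the bottom.

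Many of the 39 proteins have a close relative that serves membrane traffic in most cells, and these relatives did not follow the neuronal forms. Of 40 widely expressed paralogs tested, 4 rose (10%) and 13 fell (32.5%), with a median log2 fold change of -0.05. With the letter as a block 8 rose and 15 fell, and 2 rose and 11 fell without flox/flox B. Of the 4 that rose without the block, Stxbp4 and Snap47 are on chromosome 11 and did not pass relative to the shift of that chromosome (adjusted p = 0.0628 and 0.871). Stx3, a syntaxin of apical and other membranes, fell to 28.9, 31.3 and 29.7 CPM in libraries labelled -/-, against 67.9, 72.2 and 60.8 CPM in flox/flox libraries (-1.16 ± 0.08, adjusted p = 0.000325). Snap23, the SNARE of most non-neuronal cells, averaged 30.3 ± 4.21 CPM in libraries labelled -/- and 42.8 ± 1.76 CPM in flox/flox libraries (SD, n = 3 each; -0.50, adjusted p = 0.00965). The log2 ratio of Snap25 to Snap23 was -0.23, -0.33 and 0.55 in libraries labelled -/- and -1.96, -1.86 and -1.20 in flox/flox libraries. This ratio is not scaled for exon length, so that its sign does not say which gene was the more abundant, but it was higher in each library labelled -/- than in each flox/flox library.

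In 11 of 12 such pairs the libraries labelled -/- all had a higher ratio of the neuronal gene to its relative than the flox/flox libraries had, and in the pair Sh3gl2 and Sh3gl1 the groups overlapped. With the chromosome 11 offset taken off Vamp2 and Unc13d, the pair Vamp2 and Vamp3 overlapped as well, leaving 10 of 12. The pairs were chosen by name, and no share over other pairs of genes was computed. Among the 12 relatives 6 fell and 0 rose. Stx1a itself did not pass the test, yet its ratio to Stx3 was higher by 1.20 on the log2 scale, through the fall of Stx3. Unc13a against Unc13d, the form of blood and other secretory cells, gave the largest difference of ratio, 2.21, with Unc13d at -1.89 (adjusted p = 0.00491). Their log2 ratio was 5.75, 5.79 and 7.02 in libraries labelled -/- and 3.42, 3.73 and 4.78 in flox/flox libraries. This difference therefore rests on a low level of Unc13d in libraries labelled -/-. Synj1 against Synj2 differed by 1.68, Syp against Sypl by 1.54, Rab3a against Rab3d by 1.57 and Vamp2 against Vamp8 by 1.75. The relatives Napa (0.12, adjusted p = 0.149) and Dnm2 (0.17, adjusted p = 0.0502) did not pass, beside the rises of Napb and Dnm1.

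**Figure D5:**
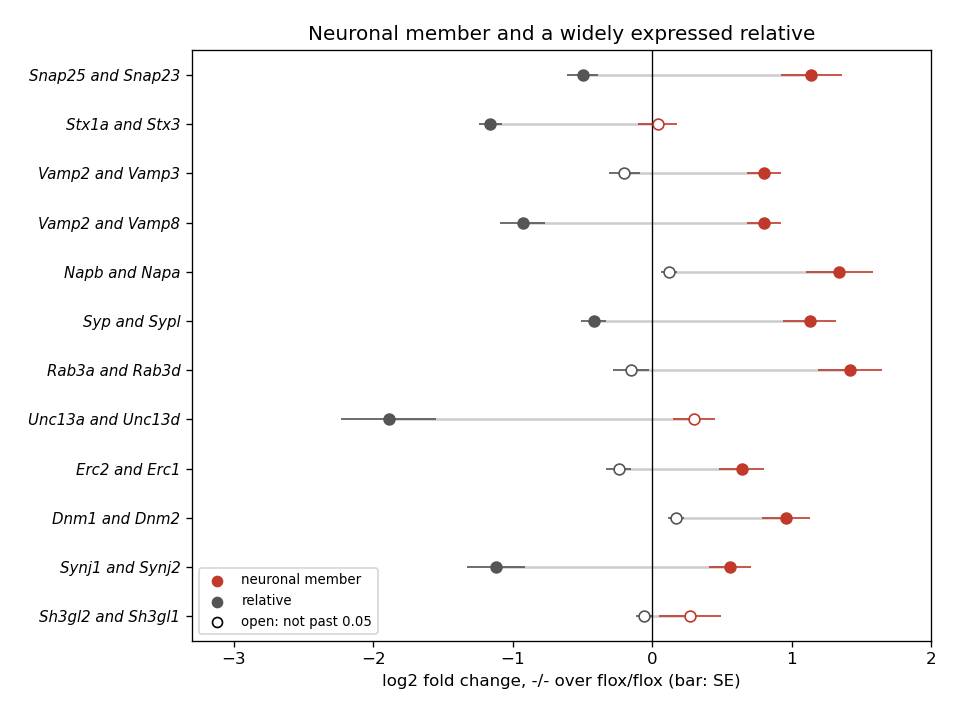
Log2 fold change, libraries labelled -/- over flox/flox, of the neuronal gene (red) and of a widely expressed relative (grey) in 12 pairs, with bars of 1 SE and open points for genes that did not pass an adjusted p of 0.05. The neuronal gene lies right of its relative in each pair, by 0.77 to 2.21 (difference of the log2 ratios) in the 11 pairs whose ratios did not overlap between genotypes, or 10 pairs with the chromosome 11 offset.

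Across the other exocytosis machinery, 29 of 33 listed genes could be tested, and 13 rose and 3 fell, with a median log2 fold change of 0.48. Besides Rph3a, Doc2a rose by 0.48 ± 0.08 (adjusted p = 0.00320), and 39.4% of its exonic bases overlap another gene. Besides Syt13, Unc13b fell by 0.26 on the log2 scale (adjusted p = 0.0105) and Syt17 fell by 0.67 (adjusted p = 0.0210), calls that were both lost without flox/flox B (0.0517 and 0.0574) and without -/- B (0.0585 and 0.0576). Syt17 also missed the threshold without flox/flox A (0.0656) and without -/- A (0.0588). Without flox/flox B there were 8 rises and 1 fall, and without -/- B 11 rises and 1 fall. Of 11 non-neural markers tested, 3 rose and 4 fell, with 1 to 5 that rose and 2 to 5 that fell across the alternatives. The endoderm gene Sox17 rose (2.62, adjusted p = 0.00326), and the epithelial keratin genes Krt8 (-1.59, adjusted p = 0.00542) and Krt18 (-1.55, adjusted p = 0.00541) fell. The 14 markers listed summed to 139 to 231 CPM in libraries labelled -/- and to 313 to 406 CPM in flox/flox libraries.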

How the data were processed

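RNA was sequenced in 6 libraries, 3 labelled -/- and 3 labelled flox/flox, from stranded poly(A) kits with 1 µg RNA per the labels' protocols. The authors deposited raw counts per Ensembl gene in 1 table. BWA 0.5.9, featureCounts 1.4.6 and the build mm10 (GRCm38) are named in the submitters' processing notes. The table's name says duplicates were marked. Not given in the sources used here: the strand setting, the annotation release and whether marked reads were counted. Overlapping genes may therefore share reads. Columns carry letters A to C where the labels carry numbers. They were assigned to a genotype and 0 columns were left out. Libraries of a genotype differed by more than sampling noise (chi-square per gene 5.47 to 29.8).

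Symbols, positions and exon lengths came from GENCODE M21. Counts were tested in R 4.3.3 with edgeR 4.0.16 (filterByExpr with minimum count 10 and total 15, TMM, glmQLFit and glmQLFTest, two-sided) over 20549 genes with Benjamini-Hochberg adjustment at 0.05. The common biological coefficient of variation was 0.123. Levels are TMM-normalised CPM, with mean ± SD over n = 3. SE was derived as the absolute fitted log2 fold change divided by the square root of the quasi-likelihood F statistic. The test script was checked on simulated counts. Deviations from the genotype means correlated between libraries of the same letter, r = 0.435 for A, 0.19 for B and 0.42 for C over 13845 genes with a mean of at least 5 CPM, so the letter was also fitted as a block.

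All 39 genes are named, with up to 3 genes per list and direction by smallest adjusted p among those averaging at least 1 CPM, plus Rest and Dmrta2. A few genes picked this way are counted but not reported here. Genes and lists were chosen with earlier results of these data known. Alternatives were DESeq2 size factors, upper-quartile scaling, no filter, a filter of 1 CPM in 3 libraries, the block, each library left out, an offset for chromosome 11, a DESeq2 1.42.0 Wald test and limma-voom (3.58.1).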

Additional observations from a re-analysis of the deposited data

How the results depend on the processing

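Of the 30 genes that rose, 19 passed in all 14 alternatives run and 11 missed the threshold in at least 1 of them. The number of the 39 that rose was 30 or 31 with other scaling, another filter, DESeq2 or limma-voom, 28 with the chromosome 11 offset and 33 with the letter as a replicate block, which added Unc13a, Amph and Slc17a7 and changed no other call of a member. It ran from 21 to 32 when a library was left out. None fell in any alternative. Over all genes, calls numbered 7250, 8529 with the replicate block, and 4717 to 6846 when a library was left out, the lowest without flox/flox B. The median log2 fold change of the 39 ran from 0.68 without -/- C to 1.01 without flox/flox C. Genes that never passed changed sign when a library was left out, with log2 fold changes of -0.06 to 0.18 for Stx1a, -0.11 to 0.05 for Pclo and -0.00 to 0.45 for Sh3gl2. Nsf went to -0.17 with the chromosome 11 offset. The cause was not tested. Depth limits Sv2b and Sv2c, which stood near 1 CPM in flox/flox libraries, and Sv2b was not tested under the 1 CPM filter.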

Other observations

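Neuropeptides, the cargo of the granules, were mostly silent at this stage. Of 22 peptide precursor genes listed, 9 were abundant enough to be tested, and 4 rose and 1 fell. Nts, the neurotensin precursor, had 13.6, 16.9 and 21.9 CPM in libraries labelled -/-, against 1.52, 1.56 and 1.71 CPM in flox/flox libraries (log2 fold change 3.45 ± 0.21, 10.9-fold, adjusted p = 0.000241). All libraries labelled -/- lay far above the flox/flox libraries. Nmb, the neuromedin B precursor, averaged 2.75 ± 0.445 CPM in libraries labelled -/- and 1.78 ± 0.288 CPM in flox/flox libraries (SD, n = 3 each; adjusted p = 0.0443), a call lost in 7 alternatives, and 20.6% of its exonic bases overlap another gene. Trh, the precursor of thyrotropin-releasing hormone, fell to 8.64, 10.4 and 7.92 CPM in libraries labelled -/-, against 17.5, 12.3 and 15.9 CPM in flox/flox libraries (-0.76 ± 0.16, adjusted p = 0.0102).

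Slc32a1, the vesicular transporter of inhibitory neurons for GABA and glycine, averaged under 1 CPM over all libraries and was picked after its values had been seen. It had 35, 42 and 53 reads (0.890, 1.19 and 1.86 CPM) in libraries labelled -/-, against 5, 5 and 3 reads (0.169, 0.190 and 0.120 CPM) in flox/flox libraries (2.98 ± 0.41, adjusted p = 0.00182), and 24.9% of its exonic bases overlap another gene. The monoamine transporter Slc18a2, likewise picked afterwards, had 5.44, 5.56 and 6.44 CPM in libraries labelled -/- and 5.30, 6.00 and 4.74 CPM in flox/flox libraries (0.12 ± 0.14, adjusted p = 0.551), and its groups overlapped.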
